A study of Mus musculus with 4 samples.

Results

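The genes described here are the 103 named genes whose messenger RNA was listed at 2-fold or more higher levels in the 2C-like cells of both reporter lines of a mouse embryonic stem cell (ESC) study. TPM, the length-scaled share of a transcript among all transcripts of a library, were summed over the listed transcripts of each gene symbol. A gene was eligible if it was above 0 in all 4 libraries, at 5 TPM or more in both GFP-positive libraries, and outside a set of name patterns. These patterns covered provisional prefixes such as Gm and BC, names ending in Rik or holding -ps, and names starting with mt-, Hspa or RP. They also covered the large 2-cell gene families (Zscan4, Tcstv, Tdpoz, Usp17l, Obox and Dux). Only names were matched, so the provisional symbol AW822073 and the annotated pseudogenes Kdm4dl (unprocessed) and Hyi (polymorphic) stayed in. A member also had a ratio of (TPM + 1), GFP-positive over GFP-negative, of at least 2 in each line. The rule left 6120 eligible named genes of 24190 symbols, of which 103 were members, or 1.68%. Among the same eligible genes, 12, or 0.196%, were 2-fold or more lower in both lines. The floor of 5 TPM stayed on the GFP-positive libraries, so genes that fell below it there could not be counted as lower. The counts of higher and lower genes, here and in the gene lists below, are therefore not a like comparison. The ratios chose the members, so they are given as a description and no test was made on them.

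All cells were E14 (ES-E14TG2a) male mouse ESCs, a standard laboratory line, cultured without serum in N2B27-based medium with a MEK inhibitor (PD0325901) and a GSK3β inhibitor (CHIR99021). Both clonal lines carried a stably integrated reporter under the Zscan4c promoter. In the GFP-Zscan4c line, called the fusion line below, the promoter drove GFP fused to Zscan4c. In the GFP line it drove GFP alone. Cells were sorted by fluorescence into a GFP-positive population, which the labels call 2C-like, and a GFP-negative population, which they call pluripotent, and each of the 4 populations gave 1 library of poly-A RNA. The reporter itself was the gate, each construct is 1 clonal line, and no population has a replicate, so a difference between 2 libraries has no error and cannot be told apart from a difference between clones or sorts. In sorted bulk RNA, a larger share of cells that express a gene and more RNA per cell cannot be told apart either.

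2C-like cells are a rare and transient state of ESC cultures in which genes and retroelements of the 2-cell mouse embryo, the stage of zygotic genome activation, are transcribed again. The state is best known for multicopy families and for transcripts that start in MERVL retroviral repeats. Genes outside these families with names of their own, such as Lgals4 and P4ha2, make up a smaller part of its signature. The set described here was chosen by name and ratio. It is thus not limited to single-copy genes or to known genes of that signature.

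The sort was checked on Zscan4c, the source of the reporter's promoter, whose TPM in the fusion line can include reads from the fusion transcript. It was at 366 TPM (fusion line) and 497 TPM (GFP line) in GFP-positive cells, against 4.11 TPM (fusion line) and 9.24 TPM (GFP line) in GFP-negative cells. The pluripotency factor Pou5f1 lay between 1075 and 1447 TPM in all 4 libraries and Nanog between 299.0 and 419 TPM. Klf4, another pluripotency factor, was at 118 TPM (fusion line) and 69.5 TPM (GFP line) in GFP-positive cells, against 40.1 TPM (fusion line) and 187 TPM (GFP line) in GFP-negative cells, so that its GFP-positive value was the higher one in the fusion line and the lower one in the GFP line. The listed transcripts held 66.6% to 69.1% of a full TPM scale. The GFP-negative cells of the GFP line gave the most divergent library, with 48.4% of all symbols listed at 0, against 11.6% to 19.5% in the other libraries. This touches every ratio of the GFP line: 1255 eligible genes (20.5%) were 2-fold or more higher in its GFP-positive library, against 227 (3.71%) in the fusion line. Together the 103 members summed to 3399 TPM (fusion line) and 2982 TPM (GFP line) in GFP-positive cells, against 915 TPM (fusion line) and 824 TPM (GFP line) in GFP-negative cells.

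Across the members the median log2 ratio was 1.63 in the fusion line and 1.90 in the GFP line, where the eligible genes had medians of 0.11 (fusion line) and 0.06 (GFP line). Members were lower in level than the eligible genes as a whole. Their median was 18.5 TPM (fusion line) and 15.4 TPM (GFP line) in GFP-positive cells, against 5.02 TPM (fusion line) and 3.05 TPM (GFP line) in GFP-negative cells. The eligible genes had medians of 30.1 TPM (fusion line) and 29.9 TPM (GFP line) in GFP-positive cells, against 27.9 TPM (fusion line) and 26.8 TPM (GFP line) in GFP-negative cells. The smaller of the log2 ratios of both lines was 2 or more in 15 members and under 1.5 in 61. In all 103 members both GFP-positive values lay above both GFP-negative values, an ordering that the rule favours and that 29% of the eligible genes had. In the plot of ratios in both lines, these 61 members lie near the threshold on at least 1 axis.

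**Figure D1:**
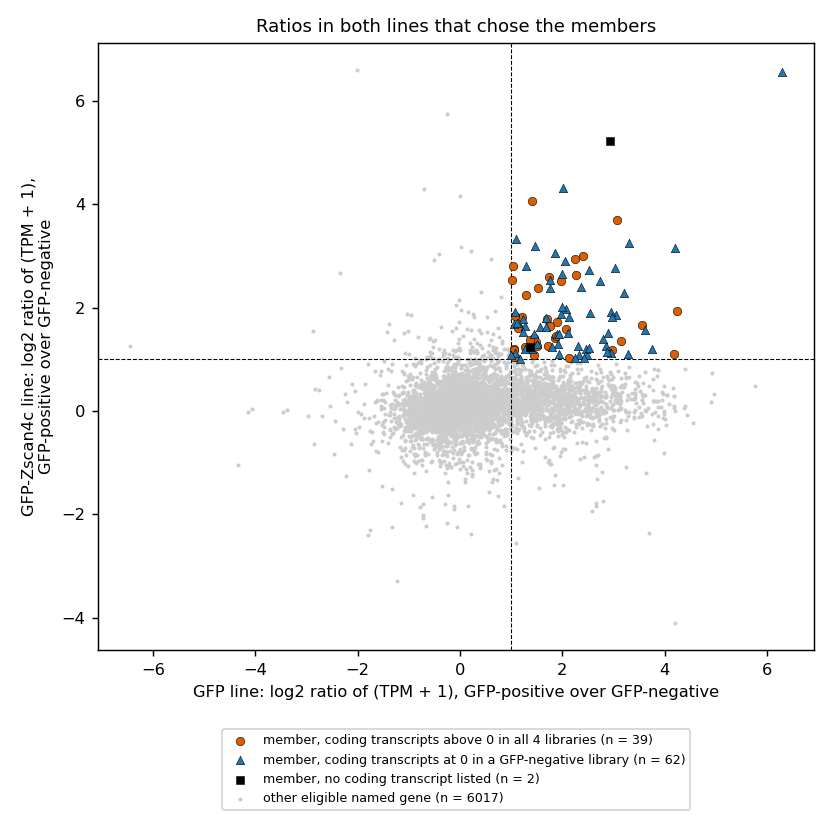
Log2 ratio of (TPM + 1), GFP-positive over GFP-negative, in the fusion (GFP-Zscan4c) line (vertical axis) against the GFP line (horizontal axis) for the 103 members (coloured) and the other 6017 eligible named genes (grey); dashed lines mark the threshold of 2-fold. Psmc2 stands farthest out, at 6.57 in the fusion line and 6.29 in the GFP line, and the grey cloud is wider along the GFP line's axis.

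Among the genes grouped under secretion, matrix and cell surface, Lgals4 and P4ha2 had the highest ratios by the smaller of both lines. Lgals4 (ENSMUSG00000053964.17, chr7:28833854-28841708, plus strand) encodes galectin-4, a sugar-binding lectin known from intestinal epithelium. It was at 46.2 TPM (fusion line) and 39.4 TPM (GFP line) in GFP-positive cells, against 4.32 TPM (fusion line) and 1.19 TPM (GFP line) in GFP-negative cells. Its log2 ratio was 3.15 in the fusion line and 4.21 in the GFP line, the third highest smaller ratio of the set. P4ha2 (ENSMUSG00000018906.14, chr11:54100095-54131665, plus strand) encodes a catalytic subunit of prolyl 4-hydroxylase, the enzyme that hydroxylates prolines of collagen. It was at 116 TPM (fusion line) and 67.6 TPM (GFP line) in GFP-positive cells, against 21.2 TPM (fusion line) and 12.3 TPM (GFP line) in GFP-negative cells. On the symbol's sum its log2 ratio was 2.4 in the fusion line and 2.37 in the GFP line. The coding transcripts of both genes were at 0 TPM in the GFP line's GFP-negative library. Those of Lgals4 were at 26.1 TPM in GFP-positive and 2.7 TPM in GFP-negative cells of the fusion line, and the GFP line's GFP-positive library held 19.6 TPM of them. Those of P4ha2 were at 76.6 TPM in GFP-positive and 19.1 TPM in GFP-negative cells of the fusion line, and the GFP line's GFP-positive library held 47.6 TPM of them. Coordinates here and below are on GRCm38 (mm10), the build named in the submitters' processing notes, and come from GENCODE M21.

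Promoters were searched for short motifs, and those of both genes held TGCACAC, a heptamer described for the DNA-binding protein Zscan4c. RefSeq promoter windows (GRCm38.p6) of 300 bases, 250 before to 50 after the annotated start, were used where that start lay within 500 bases of the 5′ end of the gene's lead transcript, the one with the highest GFP-positive TPM. Such a window was available for 68 members and for 4613 eligible genes. TGCACAC stood on either strand in 6 of the 68 member windows (8.82%), against 153 of the 4613 eligible windows (3.32%), a description of 1 of 12 motifs searched and not a site. The 6 members were P4ha2, Lgals4, Hist1h3b, Prmt3, Fam133b and Mapk8. The 250 bases before the start are shown for 5 of them, to place the heptamer in the 2 genes that mark the set, Lgals4 and P4ha2, and in 3 further members. Each is written 5′ to 3′ on the strand of its gene, and capitals mark the heptamer TGCACAC or its reverse complement GTGTGCA.
Lgals4: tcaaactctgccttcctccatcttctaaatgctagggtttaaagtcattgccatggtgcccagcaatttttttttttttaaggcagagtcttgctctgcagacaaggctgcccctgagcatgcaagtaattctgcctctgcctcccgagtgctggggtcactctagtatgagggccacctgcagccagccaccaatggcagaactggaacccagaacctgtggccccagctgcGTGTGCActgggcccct
P4ha2: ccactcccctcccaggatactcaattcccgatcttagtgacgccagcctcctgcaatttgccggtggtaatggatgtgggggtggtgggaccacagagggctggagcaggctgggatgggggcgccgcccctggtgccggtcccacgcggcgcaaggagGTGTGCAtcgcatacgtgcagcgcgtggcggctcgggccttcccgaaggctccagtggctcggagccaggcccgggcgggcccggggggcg
Hist1h3b: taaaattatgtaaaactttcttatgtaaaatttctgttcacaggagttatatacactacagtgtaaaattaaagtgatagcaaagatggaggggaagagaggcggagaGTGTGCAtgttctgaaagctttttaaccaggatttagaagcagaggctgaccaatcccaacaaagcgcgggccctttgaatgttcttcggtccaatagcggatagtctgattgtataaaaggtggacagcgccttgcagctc
Prmt3: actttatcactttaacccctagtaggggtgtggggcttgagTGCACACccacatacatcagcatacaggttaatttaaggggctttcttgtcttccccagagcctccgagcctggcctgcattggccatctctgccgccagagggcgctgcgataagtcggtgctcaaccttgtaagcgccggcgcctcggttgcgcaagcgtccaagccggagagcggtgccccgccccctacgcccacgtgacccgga
Fam133b: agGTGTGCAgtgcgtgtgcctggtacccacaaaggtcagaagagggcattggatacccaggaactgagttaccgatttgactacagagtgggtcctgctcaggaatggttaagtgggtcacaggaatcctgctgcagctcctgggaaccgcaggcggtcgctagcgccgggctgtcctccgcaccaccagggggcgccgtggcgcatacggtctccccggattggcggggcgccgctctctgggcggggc
The stretches lie at chr7:28833544-28833793 on the plus strand (Lgals4), chr11:54100674-54100923 on the plus strand (P4ha2), chr13:23752095-23752344 on the plus strand (Hist1h3b), chr7:49778108-49778357 on the plus strand (Prmt3) and chr5:3543583-3543832 on the plus strand (Fam133b). The heptamer reads as GTGTGCA in Lgals4, P4ha2, Hist1h3b and Fam133b and as TGCACAC in Prmt3.

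The other motifs were searched on both strands in the same windows. The Dux motif, TGATT and AATCA separated by 1 base, was in 0 of 68 member windows and 1 of 4613 eligible windows (0.0217%). A run of CA repeated 5 times was in 1 member window, that of Spty2d1 (1.47%), against 0.715% of eligible windows. The cyclic-AMP response element TGACGTCA was in 4 member windows (5.88%), those of Hist1h2bj, Zfand2a, Zbtb11 and Kif5c, against 4.14%, and its first 5 letters TGACG, which overlap it, in 29.4%, against 36.1%. The TATA box TATAAA was in 11.8% of member windows, against 6.46% of eligible windows, and the CCAAT box in 47.1%, against 41.1%. The GC box GGGCGG (67.6%, against 72.3%), the E box CACGTG (8.82%, against 11.8%), the ETS motif CCGGAAGT (7.35%, against 10.6%), the heat shock element GAANNTTC (4.41%, against 5.33%) and the YY1 motif, AAGATGG directly followed by CGGC, (0%, against 2.38%) were each at a lower share in the members. Median GC content was 64.5% in the member windows and 62.0% in the eligible windows, and 14.7% of member windows, against 6.94% of eligible ones, had under 50% GC.

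A gene symbol's TPM is a sum over transcripts of different kinds, and the members separated into groups by which transcripts carried it. GENCODE M21 marks some transcripts as protein-coding and others as further types, such as retained introns and targets of nonsense-mediated decay. Only the protein-coding type is counted as coding here. For 39 members (37.9%) the coding transcripts were above 0 in all 4 libraries, a pattern that 75.8% of eligible genes had. For 43 members (41.7%) every coding transcript was listed at 0 TPM in the GFP line's GFP-negative library only, against 21.4% of eligible genes. For 18 members (17.5%) they stood at 0 in the GFP-negative libraries of both lines, which was so for 42 eligible genes (0.686%). Eif2ak3 alone was at 0 in the fusion line's GFP-negative library only, and Kdm4dl and Rab26os have no coding transcript listed. The rule asked for a low GFP-negative sum, so these shares are not independent of it.

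The GFP-negative values of the genes with coding transcripts at 0 were held by other transcripts. Of the 61 members at 0 for coding transcripts in the GFP line's GFP-negative library, 55 had most of the symbol's TPM there in transcripts annotated as retained introns. A symbol above 0 with its coding transcripts at 0 must hold its TPM in other types. The count was not made for the 1354 eligible genes at 0 there, so it is not read as a trait of the members. In the plot of coding transcripts at 0, the members exceed the other eligible genes in both GFP-negative libraries. The share was 0% (fusion line) and 0.990% (GFP line) of members in GFP-positive cells, against 18.8% (fusion line) and 60.4% (GFP line) in GFP-negative cells. The 1 member at 0 in a GFP-positive library was Alg6. The lead transcript was listed at 0 in the GFP-negative cells for 29 members (28.2%) in the fusion line and for 76 (73.8%) in the GFP line, against 2.16% (fusion line) and 30.7% (GFP line) of eligible genes. An exact 0 in these tables can be a failed estimate, so it is not read as absence of the transcript.

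**Figure D2:**
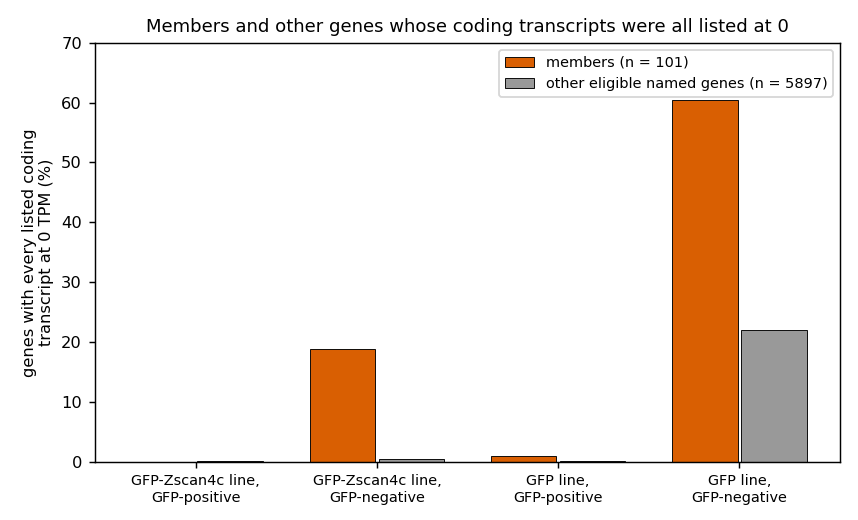
Percent of genes with every listed coding transcript at 0 TPM in each of the 4 libraries, for the 101 members with a coding transcript (orange) and 5897 other eligible named genes (grey). In GFP-negative cells the members stand at 18.8% (fusion line) and 60.4% (GFP line), the other genes at 0.475% (fusion line) and 21.9% (GFP line).

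Psmc2, an ATPase of the 19S proteasome cap, was the extreme case. Its symbol was at 96.6 TPM (fusion line) and 105 TPM (GFP line) in GFP-positive cells, against 0.031 TPM (fusion line) and 0.348 TPM (GFP line) in GFP-negative cells. Its lead transcript held 99.9% of that TPM in both GFP-positive libraries and stood at 0 in the GFP-negative libraries of both lines. The same shift was seen in Tbc1d2b, Atf6, Eif2ak3, Epb41l5 and Tox4, where the lead transcript held 89.4% to 99.98% of the symbol in GFP-positive cells and 0% in GFP-negative cells of both lines. On coding transcripts alone, 32 of the 39 members with coding values above 0 everywhere kept a ratio of 2-fold or more in both lines. The other 7 (Txnl4a, Mesdc2, Gnaz, Fbxo7, Mbd6, Papd5 and Tbc1d2b) did not reach the same threshold. Of the 43 members at 0 in the GFP line's GFP-negative library only, 35 kept a ratio of 2-fold or more on coding transcripts in the fusion line. The other 8 were Slmap, Hemk1, Pbrm1, Kmt2e, Apaf1, Mapk8, Cul5 and Atf7ip. Hemk1 was the 1 gene of these whose coding transcripts were lower in GFP-positive cells of the fusion line, at 5.93 TPM, against 8.8 TPM in its GFP-negative cells. Applied to coding transcripts from the start, the rule took 60 of 4509 genes (1.33%), of which these 32 were members. Only 1 transcript is listed for 14 members, which leaves no other listed transcript of the same symbol to share the reads: Kdm4dl, Sox3, Chrm3, Cebpa, Pmaip1, Hist1h3b, Sord, Otud6a, Dppa2, Hist1h3c, Dact3, Fbxo15, Hist1h2bj and Tigd2. Reads may still be shared with related copies, overlapping genes or unlisted transcripts.

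**Figure D3:**
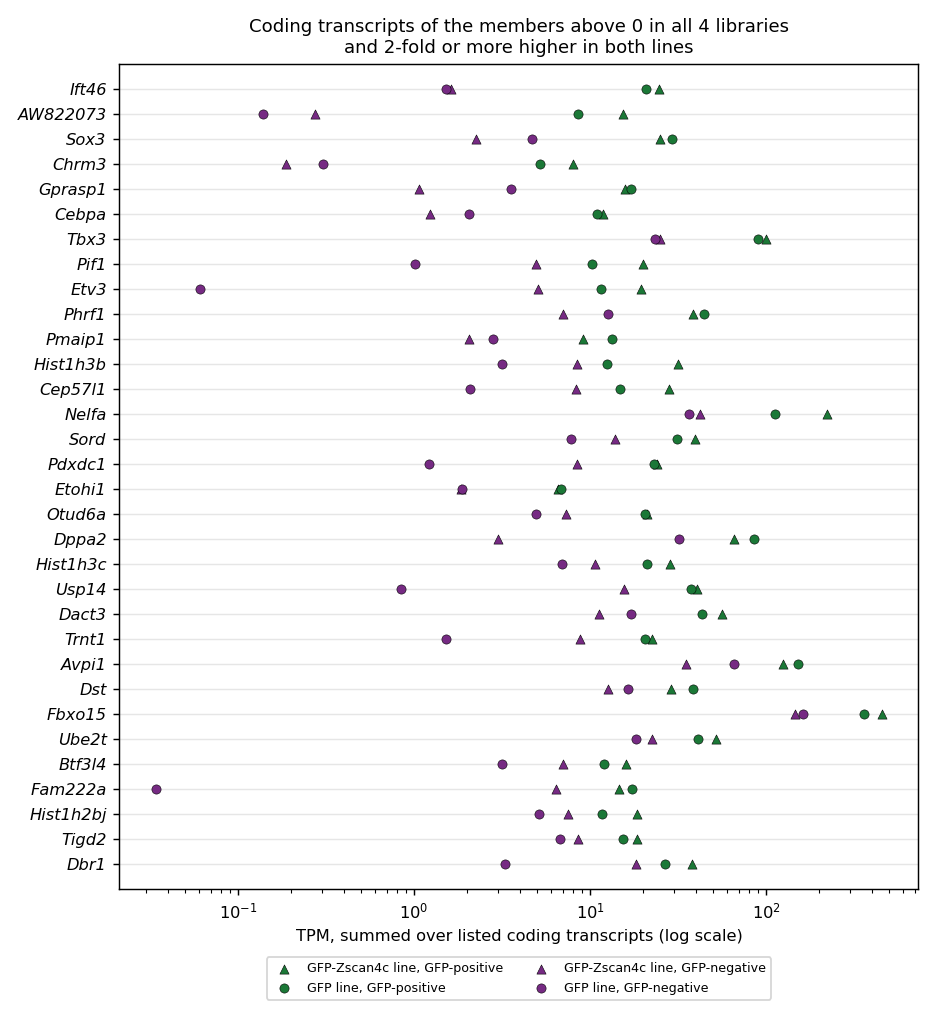
TPM summed over coding transcripts only (log axis) in each of the 4 libraries, for the 32 members whose coding transcripts were above 0 in all libraries and 2-fold or more higher in both lines, ordered by the smaller ratio. Green marks GFP-positive and purple GFP-negative cells; triangles are the fusion line and circles the GFP line, and every green mark lies to the right of the purple marks of its gene.

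Among the 12 transcription regulators, the median log2 ratio was 2.09 (range 1.08 to 4.06) in the fusion line and 1.81 (range 1.0 to 3.62) in the GFP line. Sox3 encodes a SoxB1 factor of the same subgroup as Sox2. It was at 24.9 TPM (fusion line) and 29.2 TPM (GFP line) in GFP-positive cells, against 2.25 TPM (fusion line) and 4.69 TPM (GFP line) in GFP-negative cells. Cebpa, a basic leucine zipper factor of myeloid and fat cell differentiation, was at 11.8 TPM in GFP-positive and 1.24 TPM in GFP-negative cells of the fusion line, and 11 TPM in GFP-positive and 2.06 TPM in GFP-negative cells of the GFP line. Both genes have a single listed transcript, and in both the GFP-negative value was lower in the fusion line than in the GFP line. Tbx3 encodes a T-box factor of the naive pluripotency network and was at 102 TPM (fusion line) and 101 TPM (GFP line) in GFP-positive cells, against 32 TPM (fusion line) and 29.1 TPM (GFP line) in GFP-negative cells. Its log2 ratio was 1.65 in the fusion line and 1.76 in the GFP line. Dppa2, a DNA-binding protein known as an activator of Dux in mouse ESCs, was at 66.1 TPM in GFP-positive and 3.02 TPM in GFP-negative cells of the fusion line, and 85.6 TPM in GFP-positive and 31.8 TPM in GFP-negative cells of the GFP line. Its ratio in the fusion line rested on a GFP-negative value far below that of the GFP line, while the GFP-positive values lay within 1.5-fold of each other. Etv3, an ETS-family repressor, was at 20.1 TPM (fusion line) and 12.6 TPM (GFP line) in GFP-positive cells, against 5.67 TPM (fusion line) and 0.151 TPM (GFP line) in GFP-negative cells.

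The leucine zipper factors of the cyclic-AMP response element family had coding transcripts at 0 TPM in the GFP line's GFP-negative library. Atf2 was at 53.7 TPM in GFP-positive and 17.3 TPM in GFP-negative cells of the fusion line, and 34.6 TPM in GFP-positive and 1.89 TPM in GFP-negative cells of the GFP line. Creb1 was at 11.6 TPM in GFP-positive and 4.3 TPM in GFP-negative cells of the fusion line, and 8.67 TPM in GFP-positive and 0.33 TPM in GFP-negative cells of the GFP line. For both genes the fusion line, where coding transcripts were above 0 in each sort, gave the smaller ratio. Lmo4, a LIM-domain adaptor, and Zbtb11, a zinc finger protein, had the same transcript pattern, with 6.76 to 17.5 TPM in the GFP-positive libraries and 2.87 to 5.05 TPM in the GFP-negative libraries between them. Clock, the circadian activator, and Tox4, an HMG-box protein, had coding transcripts at 0 in both GFP-negative libraries. They spanned 9.16 to 23.4 TPM in the GFP-positive libraries and 0.884 to 10.4 TPM in the GFP-negative libraries.

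Grouped under transcript elongation and chromatin were 14 genes, the pseudogene Kdm4dl and the ribosomal protein methyltransferase Prmt3 among them. Their median log2 ratio was 1.7 (range 1.0 to 5.23) in the fusion line and 1.82 (range 1.05 to 3.29) in the GFP line. The ratio of 5.23 was that of Kdm4dl. Nelfa encodes a subunit of the negative elongation factor, which holds RNA polymerase II in promoter-proximal pausing. It was at 224 TPM (fusion line) and 114 TPM (GFP line) in GFP-positive cells, against 42.5 TPM (fusion line) and 38.6 TPM (GFP line) in GFP-negative cells, the second highest member level in GFP-positive cells of the fusion line. Ctr9 encodes a scaffold of the PAF1 elongation complex and was at 87 TPM (fusion line) and 97.8 TPM (GFP line) in GFP-positive cells, against 21.6 TPM (fusion line) and 22.6 TPM (GFP line) in GFP-negative cells. Its coding transcripts were at 0 TPM in the GFP line's GFP-negative library. The replication-dependent histone genes Hist1h3b, Hist1h3c and Hist1h2bj were members, with 11.6 to 31.6 TPM in the GFP-positive libraries and 3.15 to 10.7 TPM in the GFP-negative libraries. Hist1h3b was at 31.6 TPM in GFP-positive and 8.49 TPM in GFP-negative cells of the fusion line, and 12.5 TPM in GFP-positive and 3.15 TPM in GFP-negative cells of the GFP line. These genes have near-identical copies and their main transcripts lack a poly-A tail, so their poly-A values are uncertain.

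Kdm4dl, annotated as an unprocessed pseudogene of the Kdm4 histone demethylase family, was at 49.2 TPM (fusion line) and 14.5 TPM (GFP line) in GFP-positive cells, against 0.341 TPM (fusion line) and 1.02 TPM (GFP line) in GFP-negative cells. Its log2 ratio was 5.23 in the fusion line and 2.94 in the GFP line, and reads that it shares with related copies cannot be separated here. Prmt3, a ribosomal protein arginine methyltransferase, was at 24.1 TPM in GFP-positive and 0.253 TPM in GFP-negative cells of the fusion line, and 21.2 TPM in GFP-positive and 4.48 TPM in GFP-negative cells of the GFP line. Phrf1, a PHD and RING finger protein, and Mbd6, of the methyl-CpG-binding domain family, had coding transcripts above 0 in all libraries and spanned 27.8 to 53.2 TPM in the GFP-positive libraries and 7.1 to 23.8 TPM in the GFP-negative libraries. Further members of this group were Spty2d1 (a histone chaperone), Pbrm1 (a PBAF remodeller subunit), Kmt2e and Atf7ip (a cofactor of the methyltransferase Setdb1). All 4 had coding transcripts at 0 TPM in the GFP line's GFP-negative library only, and they spanned 8.37 to 36.8 TPM in the GFP-positive libraries and 0.282 to 17.9 TPM in the GFP-negative libraries.

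The 3 genes of stress sensing all had coding transcripts at 0 in a GFP-negative library. Atf6 encodes a membrane-bound factor that senses unfolded protein in the endoplasmic reticulum. It was at 9.64 TPM (fusion line) and 9.08 TPM (GFP line) in GFP-positive cells, against 0.116 TPM (fusion line) and 0.0156 TPM (GFP line) in GFP-negative cells. Eif2ak3 encodes PERK, the kinase of another branch of that response, and was at 14.6 TPM in GFP-positive and 1.23 TPM in GFP-negative cells of the fusion line, and 16.3 TPM in GFP-positive and 6.07 TPM in GFP-negative cells of the GFP line. Zfand2a, an arsenite-inducible zinc finger protein, was at 11.6 TPM (fusion line) and 15.9 TPM (GFP line) in GFP-positive cells, against 3.49 TPM (fusion line) and 3.4 TPM (GFP line) in GFP-negative cells. From the list of 17 eligible target genes of the integrated and oxidative stress responses, 0 were members and 0 were 2-fold or more lower in both lines. The list's median log2 ratio was -0.01 in the fusion line and -0.35 in the GFP line.

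The 7 genes of RNA processing had a median log2 ratio of 1.39 (range 1.1 to 2.81) in the fusion line and 2.8 (range 1.03 to 4.24) in the GFP line. Txnl4a, a component of the U5 spliceosomal particle, was at 5.11 TPM (fusion line) and 45.3 TPM (GFP line) in GFP-positive cells, against 0.595 TPM (fusion line) and 1.45 TPM (GFP line) in GFP-negative cells. It differed between the GFP-positive populations more than any other member, by -2.92 on the log2 scale, fusion line over GFP line. Its coding transcripts summed to 0.726 TPM (fusion line) and 44.8 TPM (GFP line) there. The protein-coding gene Gm16286 overlaps Txnl4a on the same strand. Gm16286 was at 85.8 TPM (fusion line) and 81.8 TPM (GFP line) in GFP-positive cells. In GFP-negative cells it was at 74.8 TPM (fusion line) and 97.7 TPM (GFP line). Reads may be shared between these genes, which was not tested. Trnt1, which adds the CCA end to tRNAs, was at 25.5 TPM in GFP-positive and 9.42 TPM in GFP-negative cells of the fusion line, and 21.3 TPM in GFP-positive and 1.52 TPM in GFP-negative cells of the GFP line. Dbr1 encodes the enzyme that debranches intron lariats and was at 44.4 TPM (fusion line) and 77.3 TPM (GFP line) in GFP-positive cells, against 20.1 TPM (fusion line) and 3.3 TPM (GFP line) in GFP-negative cells. Aqr, an intron-binding helicase, was at 82 TPM in GFP-positive and 25.4 TPM in GFP-negative cells of the fusion line, and 41.5 TPM in GFP-positive and 16.6 TPM in GFP-negative cells of the GFP line. Xrn1 (the cytoplasmic 5′ exonuclease), Paip1 (a partner of poly-A binding protein) and Papd5 (a non-canonical poly-A polymerase) spanned 10.6 to 22.2 TPM in the GFP-positive libraries and 1.07 to 9.1 TPM in the GFP-negative libraries.

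Besides Psmc2, the ubiquitin and proteasome group held 8 genes, and the 9 had a median log2 ratio of 1.41 (range 1.02 to 6.57) in the fusion line and 1.86 (range 1.06 to 6.29) in the GFP line. Fbxo15, an F-box gene known as a marker of undifferentiated ESCs, had the highest level of any member in GFP-positive cells. It was at 456 TPM (fusion line) and 359 TPM (GFP line) in GFP-positive cells, against 147 TPM (fusion line) and 163 TPM (GFP line) in GFP-negative cells, from a single listed transcript. Otud6a, a deubiquitinase gene with a single listed transcript, was at 21.2 TPM in GFP-positive and 7.35 TPM in GFP-negative cells of the fusion line, and 20.5 TPM in GFP-positive and 4.94 TPM in GFP-negative cells of the GFP line. Usp14, a proteasome-bound deubiquitinase, was at 46.5 TPM (fusion line) and 41.6 TPM (GFP line) in GFP-positive cells, against 22 TPM (fusion line) and 19.4 TPM (GFP line) in GFP-negative cells. Its coding transcripts summed to only 0.842 TPM in the GFP line's GFP-negative library. Ube2t (an E2 enzyme of the Fanconi anaemia pathway) and Fbxo7 spanned 12.2 to 54.4 TPM in the GFP-positive libraries and 3.84 to 23.5 TPM in the GFP-negative libraries. Ube2w, Herc1 and Cul5, an E2 enzyme, a large E3 ligase and a cullin scaffold, had coding transcripts at 0 TPM in the GFP line's GFP-negative library, with 8.03 to 22.2 TPM in the GFP-positive libraries and 0.437 to 9.61 TPM in the GFP-negative libraries.

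The DNA repair group held Pif1 and Fam175a. Pif1, a helicase that unwinds G-quadruplexes and acts at telomeres, was at 22.8 TPM in GFP-positive and 9.55 TPM in GFP-negative cells of the fusion line, and 14.7 TPM in GFP-positive and 1.01 TPM in GFP-negative cells of the GFP line. Fam175a, the Abraxas scaffold of the Brca1-A complex, was at 11.4 TPM (fusion line) and 10.9 TPM (GFP line) in GFP-positive cells, against 1.18 TPM (fusion line) and 0.788 TPM (GFP line) in GFP-negative cells, with coding transcripts at 0 in both GFP-negative libraries.

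Among the 12 genes of cell death and signalling, the median log2 ratio was 1.38 (range 1.03 to 3.19) in the fusion line and 2.07 (range 1.19 to 2.96) in the GFP line. Pmaip1 encodes the pro-apoptotic BH3 protein Noxa, a target of p53. It was at 9.1 TPM (fusion line) and 13.3 TPM (GFP line) in GFP-positive cells, against 2.06 TPM (fusion line) and 2.82 TPM (GFP line) in GFP-negative cells. It was the only member among 14 eligible p53 targets, whose median log2 ratio was 0.14 in the fusion line and 0.03 in the GFP line. Apaf1, the apoptosome scaffold, was at 16.2 TPM in GFP-positive and 7.18 TPM in GFP-negative cells of the fusion line, and 12.9 TPM in GFP-positive and 1.48 TPM in GFP-negative cells of the GFP line, with coding transcripts at 0 TPM in the GFP line's GFP-negative library. Avpi1, a gene known as induced by vasopressin, was at 125 TPM (fusion line) and 151 TPM (GFP line) in GFP-positive cells, against 35.1 TPM (fusion line) and 65.6 TPM (GFP line) in GFP-negative cells. Chrm3, a muscarinic acetylcholine receptor gene, was at 8.06 TPM in GFP-positive and 0.189 TPM in GFP-negative cells of the fusion line, and 5.21 TPM in GFP-positive and 0.306 TPM in GFP-negative cells of the GFP line. Dact3, an antagonist of Wnt signalling, was at 56.4 TPM (fusion line) and 43.1 TPM (GFP line) in GFP-positive cells, against 11.2 TPM (fusion line) and 17 TPM (GFP line) in GFP-negative cells.

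Prex2, an activator of Rac GTPases, was at 19.1 TPM (fusion line) and 5.92 TPM (GFP line) in GFP-positive cells, against 1.2 TPM (fusion line) and 1.5 TPM (GFP line) in GFP-negative cells. Its coding transcripts held only 1.82 TPM (fusion line) and 0.591 TPM (GFP line) in GFP-positive cells and were at 0 in GFP-negative cells. The ratio of Prex2 thus described mainly transcripts of other types. Its lead transcript, annotated as a target of nonsense-mediated decay, held 58.4% (fusion line) and 42.9% (GFP line) of its TPM in GFP-positive cells. The other signalling genes were Gnaz (a G protein alpha subunit), Cdc42bpa, Prkcd and Mapk8 (protein kinases), Adrbk2 (a G protein-coupled receptor kinase) and Shb (an SH2 adaptor). These 6 spanned 5.48 to 39.6 TPM in the GFP-positive libraries and 1.13 to 17.7 TPM in the GFP-negative libraries, and all but Gnaz had coding transcripts at 0 TPM in the GFP line's GFP-negative library.

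Besides Lgals4 and P4ha2, the group of secretion, matrix and cell surface held Mesdc2, Rhbdf1 and Mmp14. Mesdc2, a chaperone of LDL-receptor family proteins, was at 40.7 TPM (fusion line) and 115 TPM (GFP line) in GFP-positive cells, against 16.4 TPM (fusion line) and 39.8 TPM (GFP line) in GFP-negative cells. Rhbdf1, an inactive rhomboid, was at 16.8 TPM in GFP-positive and 3.81 TPM in GFP-negative cells of the fusion line, and 12.1 TPM in GFP-positive and 1.25 TPM in GFP-negative cells of the GFP line. Mmp14, a membrane-bound matrix metalloproteinase, was at 6.16 TPM (fusion line) and 9.63 TPM (GFP line) in GFP-positive cells, against 0.962 TPM (fusion line) and 1.69 TPM (GFP line) in GFP-negative cells. Mmp14 had coding transcripts at 0 in both GFP-negative libraries, and Rhbdf1 had them at 0 in that of the GFP line only.

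The 10 genes of the cytoskeleton and of transport had a median log2 ratio of 1.84 (range 1.12 to 2.72) in the fusion line and 1.83 (range 1.01 to 3.76) in the GFP line. Ift46, of the intraflagellar transport complex of cilia, was at 26.6 TPM (fusion line) and 21.7 TPM (GFP line) in GFP-positive cells, against 3.56 TPM (fusion line) and 5.78 TPM (GFP line) in GFP-negative cells. On coding transcripts alone it was at 24.7 TPM (fusion line) and 20.7 TPM (GFP line) in GFP-positive cells, against 1.62 TPM (fusion line) and 1.52 TPM (GFP line) in GFP-negative cells. Of the 32 members shown on coding transcripts, it had the largest smaller ratio, and the GFP-negative values of both lines were alike. Epb41l5, a FERM-domain protein of cell polarity, was at 6.64 TPM in GFP-positive and 0.158 TPM in GFP-negative cells of the fusion line, and 5.51 TPM in GFP-positive and 0.128 TPM in GFP-negative cells of the GFP line. Dpysl5, of the collapsin response mediator family, was at 11.5 TPM (fusion line) and 15.5 TPM (GFP line) in GFP-positive cells, against 2.32 TPM (fusion line) and 1.15 TPM (GFP line) in GFP-negative cells. Atp11b, a phospholipid flippase, was at 21.2 TPM in GFP-positive and 5.12 TPM in GFP-negative cells of the fusion line, and 28.1 TPM in GFP-positive and 2.51 TPM in GFP-negative cells of the GFP line. Dst (a cytoskeletal linker), Tbc1d2b, Arhgap17, Tes, Trak2 and Kif5c (a kinesin heavy chain) spanned 5.39 to 52.2 TPM in the GFP-positive libraries and 0.144 to 22.1 TPM in the GFP-negative libraries.

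Of the 10 metabolic genes, 9 had coding transcripts at 0 in at least 1 GFP-negative library. Their median log2 ratio was 1.65 (range 1.2 to 2.29) in the fusion line and 1.78 (range 1.05 to 3.2) in the GFP line. Sord, the sorbitol dehydrogenase gene, was the exception, at 39.4 TPM (fusion line) and 31.3 TPM (GFP line) in GFP-positive cells, against 13.8 TPM (fusion line) and 7.76 TPM (GFP line) in GFP-negative cells. Ddhd1, a phospholipase, was at 48.2 TPM in GFP-positive and 9.06 TPM in GFP-negative cells of the fusion line, and 24.9 TPM in GFP-positive and 1.82 TPM in GFP-negative cells of the GFP line. Tmtc4, a protein O-mannosyltransferase, was at 9.9 TPM (fusion line) and 6.6 TPM (GFP line) in GFP-positive cells, against 1.69 TPM (fusion line) and 0.91 TPM (GFP line) in GFP-negative cells. Further members were the related Tmtc3, the lipid acyltransferase Lpcat4, Uap1 and Nagk of amino sugar metabolism, Hyi and the glucosyltransferase Alg6. These 6 spanned 5.44 to 53.1 TPM in the GFP-positive libraries and 0.79 to 16.6 TPM in the GFP-negative libraries.

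The remaining 19 members were put in no role group, with a median log2 ratio of 1.49 (range 1.02 to 3.69) in the fusion line and 1.76 (range 1.08 to 3.07) in the GFP line. AW822073 had the highest ratio of them in both lines, at 15.4 TPM (fusion line) and 8.54 TPM (GFP line) in GFP-positive cells, against 0.274 TPM (fusion line) and 0.138 TPM (GFP line) in GFP-negative cells. Fam133b was at 11.9 TPM in GFP-positive and 0.91 TPM in GFP-negative cells of the fusion line, and 12.4 TPM in GFP-positive and 0.652 TPM in GFP-negative cells of the GFP line, with coding transcripts at 0 in both GFP-negative libraries. Gprasp1, which binds G protein-coupled receptors, was at 16.7 TPM (fusion line) and 20.8 TPM (GFP line) in GFP-positive cells, against 1.85 TPM (fusion line) and 3.54 TPM (GFP line) in GFP-negative cells. Rab26os, an antisense transcript opposite Rab26, was at 14.8 TPM in GFP-positive and 5.73 TPM in GFP-negative cells of the fusion line, and 9.54 TPM in GFP-positive and 3.06 TPM in GFP-negative cells of the GFP line. The sources do not state whether reads were assigned by strand, so Rab26os and Rab26 may share reads. The other 15 were Fam69b, Scyl2, Cep57l1, Slmap, Tmem189, Scyl3, Etohi1, Pdxdc1, Lmbr1l, Btf3l4, Lrrc1, Gpr89, Hemk1, Tigd2 and Fam222a. They spanned 5.06 to 57.8 TPM in the GFP-positive libraries and 0.815 to 19.6 TPM in the GFP-negative libraries.

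**Figure D4:**
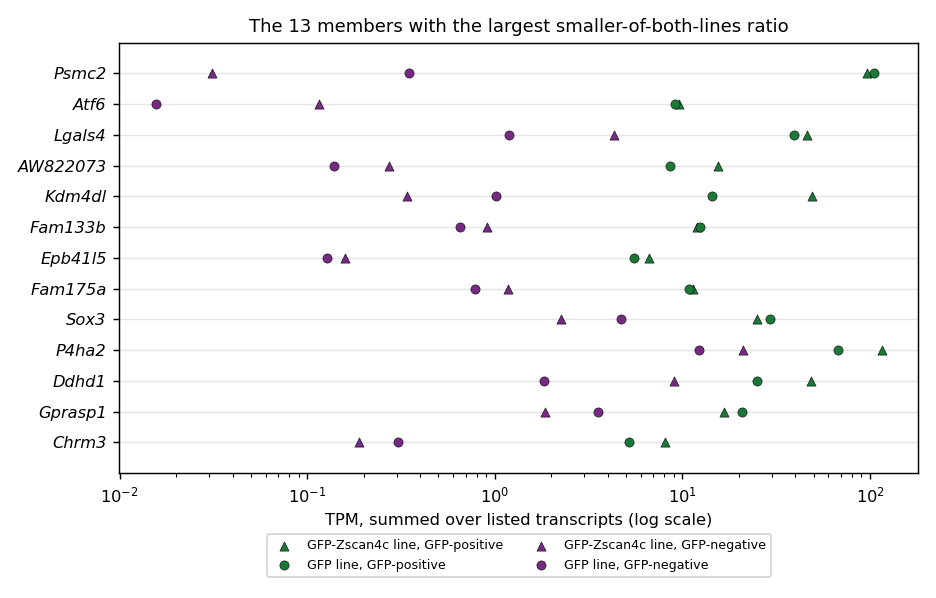
TPM summed over all listed transcripts (log axis) in each of the 4 libraries for the 13 members with the largest smaller-of-both-lines ratio, in order of that ratio from the top. Green marks GFP-positive and purple GFP-negative cells; triangles are the fusion line and circles the GFP line, and Psmc2, Atf6 and Lgals4 head the list.

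The lines were also compared within each sort, a comparison that the rule did not use directly. The median log2 ratio of fusion line over GFP line in GFP-positive cells was 0.16 for the members and 0.03 for the eligible genes. Of the 103 members, 66 (64.1%) were higher in the fusion line, against 54.0% of eligible genes. In GFP-positive cells 75 members (72.8%) lay within 1.5-fold between the lines, a smaller share than the 87.9% of eligible genes. Only 3 members (2.91%) were 2-fold or more higher in the fusion line, where 1.58% of eligible genes were, and 2 members (1.94%) were 2-fold or more lower, where 1.86% were. The 3 higher ones were Kdm4dl at 1.7, Prex2 at 1.54 and Hist1h3b at 1.27. The next were Cep57l1 at 0.98, Nelfa at 0.97 and Aqr at 0.96. At the other end stood Txnl4a at -2.92, Mesdc2 at -1.47, Dbr1 at -0.79, Adrbk2 at -0.72, Fam69b at -0.62 and Gnaz at -0.59, all on the log2 scale. In GFP-negative cells 25 members (24.3%) were 2-fold or more higher in the fusion line, where 18.04% of eligible genes were, and 8 (7.77%) were 2-fold or more lower, where 4.35% were. The GFP line's library there is the one with the most symbols at 0.

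**Figure D5:**
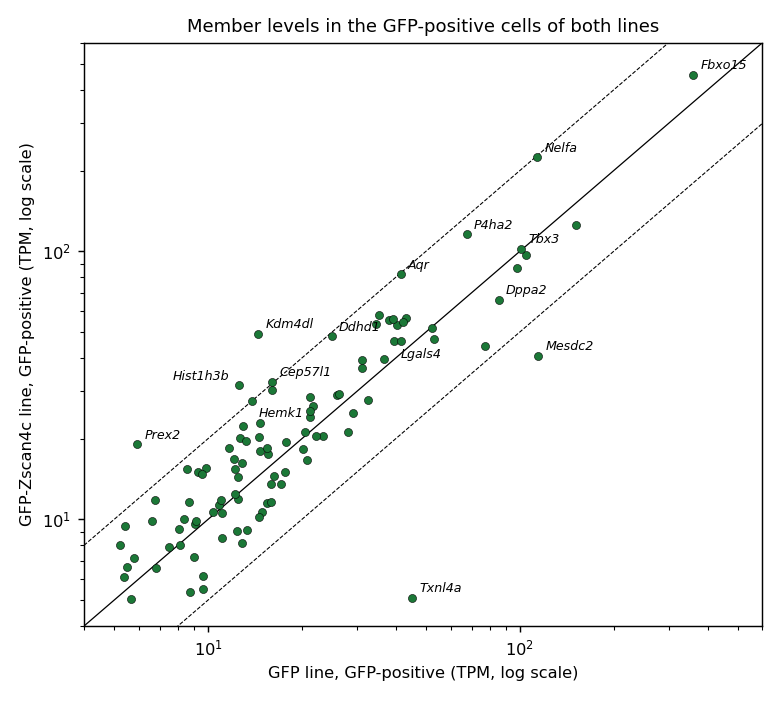
TPM of the 103 members in GFP-positive cells of the fusion line (vertical, log axis) against the GFP line (horizontal, log axis), 1 point per gene; the solid line marks equal levels and the dashed lines 2-fold apart. Kdm4dl, Prex2 and Hist1h3b lie above the upper dashed line, and Txnl4a and Mesdc2 lie below the lower one.

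Line was also tested over both sorts with limma, as the line term beside a term for GFP status. With 4 libraries and 3 coefficients the fit left 1 residual degree of freedom per gene, which is how much the line difference changed between sorts. The error used was moderated by eBayes with information from all symbols fitted. It is thus not the gene's own spread, and a gene whose line difference changed between sorts can still be called. At an adjusted p under 0.05 it called 0 of 12065 symbols (0%), members included, and the lowest adjusted p was 0.844. At an unadjusted p under 0.05 it gave 456 symbols (3.78%) and 7 of the 103 members (6.8%). These were Mesdc2, P4ha2, Aqr, Slmap, Ddhd1, Hist1h3b and Cep57l1. For Mesdc2 the limma log2 difference, fusion line over GFP line, was -1.35 ± 0.21 (SE; adjusted p = 0.844). For P4ha2 it was 0.76 ± 0.21 (SE; adjusted p = 0.844), with a higher value in the fusion line in both sorts. After quantile normalization the same limma test called 376 symbols (3.12%), among them the members Dppa2 and Mesdc2, both lower in the fusion line. As deposited, the log2 ratio of Dppa2, fusion line over GFP line, was -0.37 in GFP-positive and -3.03 in GFP-negative cells.

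Of the gene lists examined, few held more than 1 member, and their counts are read against the 1.68% of eligible genes that were members. Of 27 listed 2C-like genes outside the large families, 9 were eligible and 3 were members: Lgals4, P4ha2 and Dppa2. The list was made from what is known of 2C-like cells, and the members were chosen on the same sort. Most of the other 2C-like genes were not eligible because they stood at 0 in a GFP-negative library, Tmem92 among them with 136 TPM (fusion line) and 64.8 TPM (GFP line) in GFP-positive cells and 0 in both GFP-negative libraries. Of the galectins, Lgals4 was the 1 member of 3 eligible. Lgals3 was at 11.2 TPM (fusion line) and 13.4 TPM (GFP line) in GFP-positive cells, against 9.6 TPM (fusion line) and 14.7 TPM (GFP line) in GFP-negative cells. Of 9 eligible collagen and lysyl hydroxylase genes and their partners, P4ha2 was the 1 member. P4ha1, the other main catalytic subunit, was at 66.2 TPM in GFP-positive and 55.9 TPM in GFP-negative cells of the fusion line, and 51.2 TPM in GFP-positive and 42.9 TPM in GFP-negative cells of the GFP line. P3h1, a prolyl 3-hydroxylase gene, was 2-fold or more lower in both lines, at 22.1 TPM (fusion line) and 28.5 TPM (GFP line) in GFP-positive cells, against 46 TPM (fusion line) and 61 TPM (GFP line) in GFP-negative cells.

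Of 22 eligible ESC pluripotency factors, 3 were members (Tbx3, Fbxo15 and Dppa2) and 0 were 2-fold or more lower in both lines. The list's median log2 ratio was -0.00043 in the fusion line and -0.28 in the GFP line. Of the markers of other cell types, 0 were members, from 3 eligible trophectoderm, 4 primitive endoderm, 1 fibroblast and 1 neural and mesoderm genes. The eligible fibroblast marker, Vim, was at 178 TPM (fusion line) and 189.9 TPM (GFP line) in GFP-positive cells, against 8.16 TPM (fusion line) and 309.6 TPM (GFP line) in GFP-negative cells, higher in GFP-positive cells of the fusion line and lower in those of the GFP line. Of the other listed fibroblast markers, Col1a1 and Col1a2 stayed at or under 0.114 TPM in every library, and Thy1 was at 7.27 TPM (fusion line) and 11.9 TPM (GFP line) in GFP-positive cells and 0 in both GFP-negative libraries. Their part in the members' values was not tested. The primitive endoderm gene Lamc1 was 2-fold or more lower in both lines, at 15 TPM (fusion line) and 30.1 TPM (GFP line) in GFP-positive cells, against 156 TPM (fusion line) and 71.8 TPM (GFP line) in GFP-negative cells. The defining markers Gata4, Sox17 and Elf5 stayed at or under 2.13 TPM in every library. No member was found among 85 eligible solute carriers, 81 genes named Zfp, 26 lysosome and autophagy genes, 24 RNA-binding motif genes, 19 mitosis genes, 19 genes of chromatin and retroelement silencing, 18 tRNA synthetases, 16 tripartite motif genes, 15 sterol genes and 2 germ cell genes. Single members were found among 73 Tmem genes (Tmem189), 26 ubiquitin-specific proteases (Usp14), 14 kinesins (Kif5c) and 36 genes whose symbols begin with Rab (Rab26os, which is no GTPase). Of 28 F-box genes, 2 were members, Fbxo15 and Fbxo7.

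In gene structure the members with and without coding transcripts at 0 differed, which the split itself favours. A symbol whose only listed transcript is coding had to be above 0 by the rule, so it could not fall in the group at 0. The median number of listed transcripts was 6 in the group at 0 and 3 in the group above 0. For structure, the eligible genes were not split in this way. The lead transcript had a median length of 2580 bases and 10 exons in the members, against 2444 bases and 8 exons in the eligible genes. It had 3034 bases and 14 exons in the 62 members with coding transcripts at 0 in a GFP-negative library, against 2283 bases and 4 exons in the 39 with coding transcripts above 0. Single-exon lead transcripts made up 9.71% of members, against 3.91% of eligible genes, and 9 of these 10 belonged to the 39. By chromosome, members made up 4.40% of eligible genes on chromosome 14 (8 of 182) and 0.306% on chromosome 8 (1 of 327), with the other autosomes and the X between these shares. Another annotated gene overlapped 61 of the 103 members, on the same strand in 30 and on the opposite strand in 46, and reads in such overlaps may be shared. Overlaps were not counted for the eligible genes, so whether this share is unusual is not known.

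The threshold of 2-fold fell within a continuous range of ratios. Just inside it lay Atf7ip, with log2 ratios of 1.0 in the fusion line and 1.17 in the GFP line, and Zbtb11, with 1.08 in the fusion line and 1.0 in the GFP line. Tbc1d2b, Fam222a and Cul5 followed, each with a smaller log2 ratio of 1.01 or 1.02. Just outside it lay Commd3, with a smaller log2 ratio of 0.998 in the fusion line, and Ptp4a1, with one of 0.997 in the GFP line. Acaa1b, Mlxipl and AU022751 came next, at 0.99, 0.97 and 0.96. Atf7ip was at 36.8 TPM (fusion line) and 31.2 TPM (GFP line) in GFP-positive cells, against 17.9 TPM (fusion line) and 13.3 TPM (GFP line) in GFP-negative cells. Commd3, on the other side of the threshold, was at 27.3 TPM (fusion line) and 18.9 TPM (GFP line) in GFP-positive cells, against 13.2 TPM (fusion line) and 6.44 TPM (GFP line) in GFP-negative cells.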

How the data were processed

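RNA from 4 sorted populations of E14 mouse ESCs was analysed, 1 library each. The deposited tables hold TPM per transcript, which the authors made with CASAVA, HISAT2 2.1.0 and StringTie 1.3.5 on GRCm38 (mm10), per the submitters' processing notes; no source names their options or annotation release. TPM keep no read counts, so depth is unknown and no counting interval is given. No label says whether cultures were separate.

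TPM of 58853 listed transcripts were summed per symbol (24190 symbols), and 58388 transcripts matched GENCODE M21, on the same build, for type, length and position. Ratios use a pseudocount of 1 TPM, which understates the change of low genes. Members and gene lists were chosen with earlier results of these data known. With 1 library per population the members' ratios were not tested. Line was tested with limma 3.58.1, run under R 4.3.3 with eBayes, a mean trend, two-sided p-values and Benjamini-Hochberg adjustment, on log2(TPM + 1) of 12065 symbols above 0 in all libraries, after a check on simulated data. Tables were handled with pandas 2.3.3 in Python 3.11.15. Promoters came from RefSeq (GRCm38.p6).

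Values are printed for the 25 members with the largest smaller ratio, the 8 with the highest GFP-positive level, listed members, those nearest the threshold, the 6 highest and 6 lowest between lines and the 6 with the largest lead-transcript shift. Of the 103 members, 3 are counted but not reported here by name. Other values were chosen after they were seen. Alternatives covered fold, pseudocount, filters, scaling, single lines and transcript choice.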

Additional observations from a re-analysis of the deposited data

How the results depend on the processing

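The number of members, 103 under the stated rule, was 317 at a fold threshold of 1.5 and 37 at a threshold of 3. It was 51 with a pseudocount of 5 TPM, 41 after quantile normalization, 270 with no requirement on zeros, 227 in the fusion line alone and 1255 in the GFP line alone. Restricted to coding transcripts, a choice made after seeing the data, it was 60, of which 32 were members, and 39 members had coding transcripts above 0 in all libraries. With the lead transcript alone it was 80, of which only 25 were members. Under 0.1 TPM as pseudocount, the level filters and median-ratio scaling it was 73 to 133. Of the 167 genes that the zero requirement removed, 105 were at 0 only in the GFP line's GFP-negative library and 62 in both GFP-negative libraries.

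The members' median log2 ratio in the GFP line, 1.90, was 1.23 with a pseudocount of 5 TPM and 0.98 after quantile normalization. In the fusion line it kept between 1.14 and 1.78, and that of fusion line over GFP line in GFP-positive cells between 0.12 and 0.17. A shift of 1.5-fold counted as a move, since no replicate spread exists. After quantile normalization 5 ratios of the GFP line turned negative, those of Tbc1d2b (-0.31), Alg6 (-0.28), Zbtb11 (-0.21), Gpr89 (-0.14) and Kif5c (-0.0867). That setting moved the median of all symbols above 0 in all libraries to -0.47 in the GFP line, against -0.03 as deposited. The cause was not tested. The limma line term called 0 members under 5 alternatives and 2 after quantile normalization. Ratios were taken within each line, and with 1 library per population no paired test of them was made. The limma line term was fitted beside GFP status, and the GFP term itself was not tested, since it chose the members.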
